A study of Mus musculus with 4 samples.

Results

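The 10 genes described here encode proteins of the nuclear lamina, of the inner nuclear membrane and of the LINC complex, which couples the nucleus to the cytoskeleton. They are Lmna, Lmnb1, Lmnb2, Lbr, Emd, Tmpo, Sun1, Sun2, Syne1 and Syne2, chosen by gene symbol. The rule uses no measured value, although the choice was made with earlier results of these data known. All 10 were found among the 24421 genes of the count files, and all 10 were among the 19891 genes with a count in at least 1 library. Expression was measured in 4 Illumina TruSeq libraries of R1 cells, an established line of mouse ESCs, as 2 replicates of Undiff and 2 of Day4. By the labels, Undiff was harvested as embryoid bodies (aggregates of ESCs) after 4 days, whereas by the methods it was ESCs kept with the cytokine LIF. Day4 is embryoid bodies cultured for 4 days without LIF and then exposed for 4 days to RA (retinoic acid, derived from vitamin A and used to induce differentiation). The RA dose is given as 2 µM in the series text and as 2 mM in the treatment label. The effect of RA therefore cannot be told apart from that of the further days in culture. By the methods, it also cannot be told apart from that of embryoid body culture without LIF. An embryoid body holds cells of several kinds, so that, in these bulk libraries, fewer cells of a type and less RNA per cell cannot be told apart.

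The nuclear lamina is a meshwork of intermediate filaments beneath the inner nuclear membrane. It is made of A-type lamins, which Lmna encodes, and of B-type lamins, which Lmnb1 and Lmnb2 encode. Inner membrane proteins such as the lamin B receptor and emerin tether chromatin and lamins to the envelope. In the LINC complex, SUN proteins cross the inner membrane and bind, in the space between the membranes, the KASH tail of nesprins, which cross the outer membrane and reach actin, microtubule motors or intermediate filaments. ESCs are known for low amounts of A-type lamins and for ample B-type lamins and lamin B receptor.

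The libraries held between 32099074 and 47730944 fragments on genes, and the 10 genes had between 183 counts (Syne1, Undiff replicate 2) and 23656 counts (Tmpo, Day4 replicate 2). The labels were checked on genes with known behaviour. Pou5f1, a pluripotency factor, had normalized counts of 31358 and 31984 in the Undiff libraries against 142 and 131 in the Day4 libraries, and Nanog had 8417 and 9053 against 115 and 90.6. The RA-induced genes Cyp26a1, which degrades RA, and Rarb, a receptor for it, had 72.9 and 63.4 against 465 and 514 and, for Rarb, a mean of 12.2 against 9238 and 9419. Of 8 pluripotency markers, 8 fell, and their summed level went from between 3414 and 3447 CPM (counts scaled to the library total) to between 18.1 and 19.3 CPM. Of 7 genes of the RA response, 6 rose, from a sum of between 8.38 and 9.35 CPM to 696 CPM in both libraries. Some markers of other cell types also differed between the states. By the criteria for the marker counts, given below, 22.2% of all genes tested rose and 20.6% fell. Of 9 fibroblast or mesenchyme markers, 8 rose and 1 fell, with a summed level of between 71.2 and 78.3 CPM in Undiff and of between 1800 and 1962 CPM in Day4. Of 10 striated muscle markers, 2 rose and 4 fell (45.6 to 45.9 CPM against 25.1 to 26.6 CPM), and of 5 smooth muscle markers, 2 rose (79.2 to 83.0 CPM against 168 to 215 CPM). Of 7 neuron markers, 2 rose and 4 fell (298 to 299 CPM against 74.9 to 75.2 CPM), and of 6 blood markers, 4 rose (2.46 to 2.56 CPM against 111 to 137 CPM). In Undiff, both libraries were at 3 counts or fewer for 1 RA response, 1 mesenchyme, 1 neuron and 2 blood markers, and in Day4 this held for 1 striated muscle marker. The part of these other cells in the values below was not tested.

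Across the 10 genes, the lamina and LINC genes did not move in 1 direction. The nesprin genes Syne1 and Syne2 and the SUN gene Sun2 rose more than 2-fold, whereas Sun1 and the lamin B receptor gene Lbr fell more than 2-fold. Emd and Tmpo rose by less than 2-fold, both B-type lamin genes fell by less than 2-fold, and the A-type lamin gene Lmna did not pass the test. Values are given as normalized counts, which are counts scaled by TMM to a common library size, and Day4 was compared with Undiff by the quasi-likelihood test of edgeR with Benjamini-Hochberg adjustment over the 19891 genes. A gene is said here to have risen or fallen where the adjusted p-value was at most 0.05 and the mean normalized count at least 5. DEGs (differentially expressed genes) also had to differ by 1 or more on the log2 scale, and the counts of markers above are of DEGs. Of the 10 genes, 3 were DEGs higher in Day4 and 2 were DEGs lower in Day4, beside 22.2% and 20.6% of all genes tested. Without the fold change minimum, 5 rose and 4 fell, beside 36.7% and 35.2% of all genes tested. Shares of this size over all genes mean that a call alone does not set the 10 genes apart. Only 16472 of the 19891 genes had the mean normalized count of at least 5 that a call needs, as all 10 did. Among genes that could be called, the shares are therefore higher than those given here and below. The median log2 fold change of the 10 genes was 0.20. That of all genes tested was -0.03, and that of the 16472 genes was 0.03. With 2 libraries in each state, an exact permutation test of a single value cannot give a two-sided p-value below 0.333, and the p-values of edgeR rest on a spread shared across genes.

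**Figure D1:**
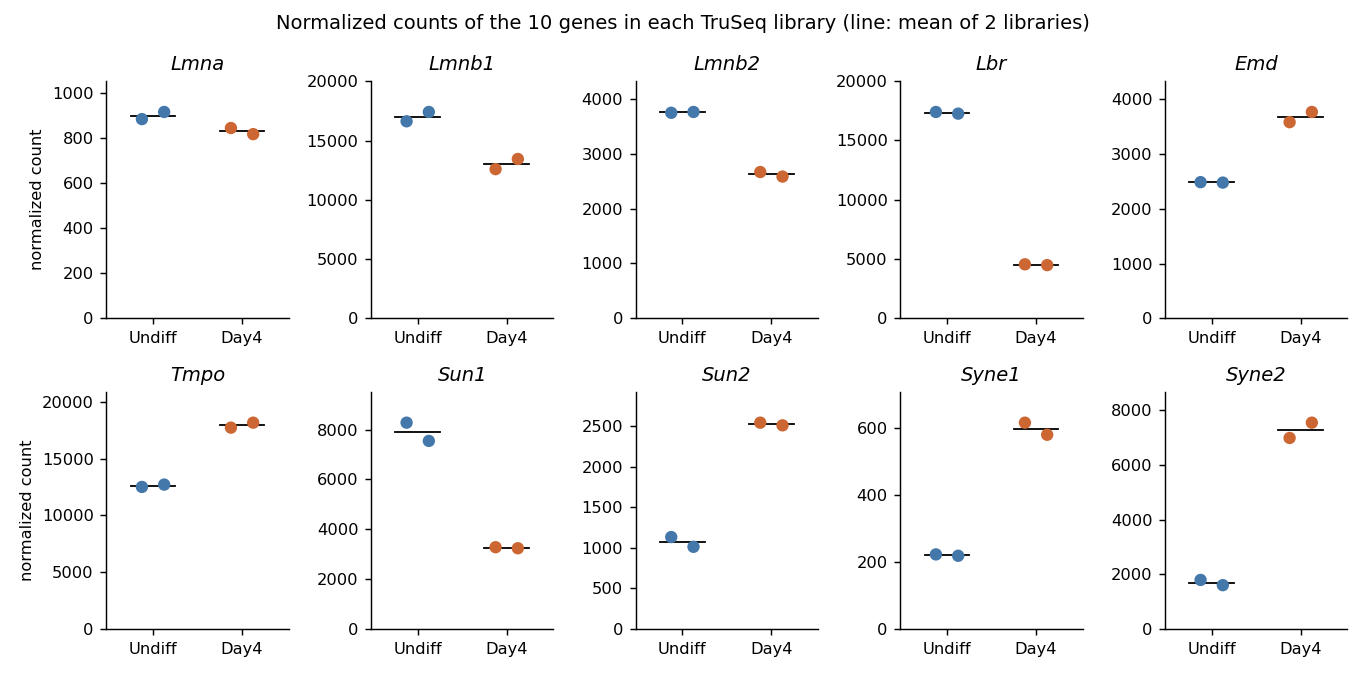
Each panel plots the normalized counts of 1 gene (y axis, starting at 0) in the 2 Undiff libraries (blue) and the 2 Day4 libraries (orange), with a line at the mean of each state. The libraries of the states do not overlap for any of the 10 genes, and the gap is narrowest for Lmna, at 884 and 915 in Undiff against 844 and 817 in Day4.

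The lamin genes were examined first. Lmna (ENSMUSG00000028063, minus strand of chromosome 3 at chr3:88480147-88509956, GRCm38) had normalized counts of 884 and 915 in Undiff against 844 and 817 in Day4. The means were 900 ± 22.4 and 830 ± 19.2 (SD, n = 2). Both Day4 libraries were below both Undiff libraries, yet the difference did not pass the test: the log2 fold change was -0.12 with a standard error (SE) of 0.06, a 95% confidence interval of -0.26 to 0.02 and an adjusted p-value of 0.12 (edgeR). The interval leaves room for a fall of up to 0.26 on the log2 scale and for a rise of up to 0.02. The call for Lmna changed with the processing, since the adjusted p-value was 0.046 with the size factors of DESeq2 and 0.035 after thinning all libraries to the smallest total.

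Lmna is spliced into prelamin A, whose last 4 codons form a CaaX box that receives a farnesyl group, and lamin C, which ends elsewhere and lacks the box. Lamin B2 also carries a CaaX box. The ends of the coding sequences are shown because fragment counts per gene cannot tell the Lmna products apart. They are the last 30 coding bases, 5′ to 3′ in the sense of the gene, from GENCODE vM21 transcripts on GRCm38, with the last 4 codons before the stop in capitals.
Prelamin A (Lmna), chr3:88482077-88482351, minus strand, across an exon junction: agccagagctcccagaacTGCAGCATCATG
Lamin C (Lmna), chr3:88483300-88483329, minus strand: catcaccaccgtgtgagtGGCAGCCGCCGC
Lamin B2 (Lmnb2), chr10:80902862-80902891, minus strand: aggactacctcaaggggcTGCCGACTGATG
Prelamin A and lamin B2 both begin their last 4 codons with TGC, the codon of the cysteine that carries the lipid, and lamin C does not. The coding sequence of prelamin A has 665 codons and that of lamin C has 574, so that most of their length is shared, and the value given for Lmna is the sum over its products.

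Lmnb1 (ENSMUSG00000024590, plus strand, chr18:56707813-56753424) had 16622 and 17409 normalized counts in Undiff and 12582 and 13441 in Day4. It encodes lamin B1, which stays attached to the inner membrane through its farnesyl group. Both Day4 libraries were below both Undiff libraries, and the gene fell by 0.39 on the log2 scale (SE 0.04, adjusted p-value 2.5e-06), from 17016 ± 557 to 13011 ± 607 (SD, n = 2). Lmnb2 (ENSMUSG00000062075, minus strand, chr10:80901203-80918245), the gene of lamin B2, had 3750 and 3765 in Undiff and 2669 and 2586 in Day4. It fell by 0.52 (SE 0.05, adjusted p-value 2.3e-07), and the spread within each state was small beside the difference. Neither B-type lamin gene reached a 2-fold change.

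The balance of the 3 lamin genes was compared within each library, from counts per kb of exon, a ratio that no scaling of libraries alters. Lmnb1 made up most of the lamin counts per kb, with 83.0% and 83.5% in Undiff and 82.9% and 84.2% in Day4. Its share overlapped between the states (two-sided exact permutation p = 1, n = 2 against 2). The share of Lmna was 3.53% and 3.52% in Undiff and 4.46% and 4.10% in Day4, and that of Lmnb2 was 13.5% and 13.0% against 12.7% and 11.7%. For both the libraries of the states did not overlap, and the two-sided exact permutation p-value was 0.333, the smallest this design can give. Lmnb1 had 23.5 and 23.7 times the counts per kb of Lmna in Undiff, and 18.6 and 20.5 times in Day4.

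**Figure D2:**
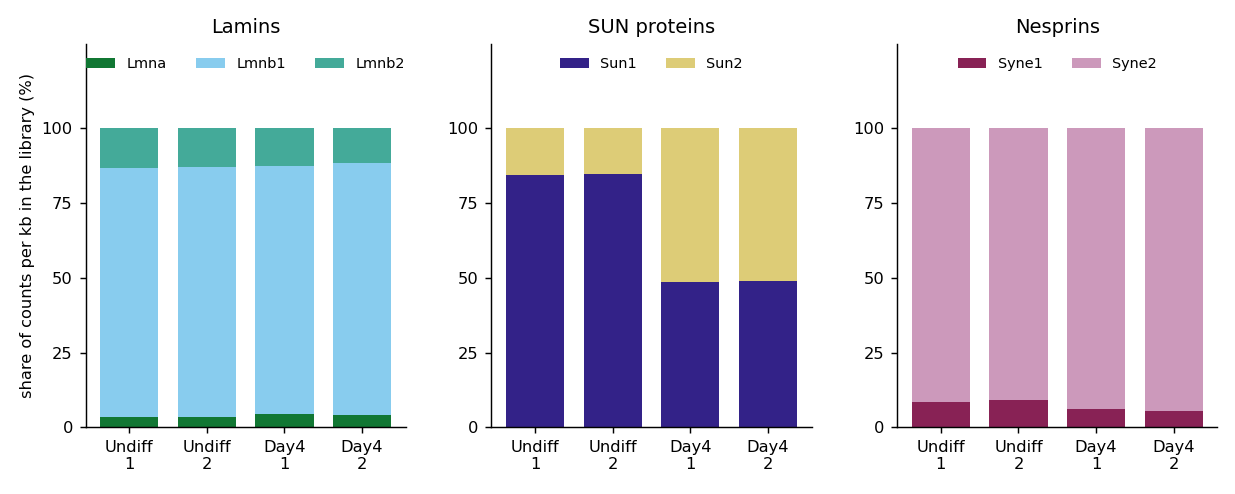
Stacked bars give, for each of the 4 libraries (x axis), the share in percent (y axis) of each gene in the counts per kb of its family, for the lamins, the SUN proteins and the nesprins. Lmnb1 held between 82.9% and 84.2% of the lamin counts per kb in every library, whereas the share of Sun1 was above 84% in both Undiff libraries and 48.7% in both Day4 libraries.

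Among the inner membrane proteins, Lbr fell most. Lbr (ENSMUSG00000004880, minus strand, chr1:181815335-181843046) encodes the lamin B receptor, which binds B-type lamins and the heterochromatin protein HP1 and carries a sterol reductase domain. Its normalized counts were 17402 and 17261 in Undiff and 4547 and 4479 in Day4. The replicates lay close together in both states, and the level in Day4 was 3.84-fold lower, a log2 fold change of -1.94 (SE 0.04, 95% confidence interval -2.03 to -1.85, adjusted p-value 7.3e-14). In counts per kb, Lbr had 17.6 and 16.9 times the level of Lmna in Undiff and 4.82 and 4.91 times in Day4.

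Emd and Tmpo, which encode proteins of the LEM domain family that bind chromatin through the factor Banf1, moved the other way. Emd (ENSMUSG00000001964, plus strand, chrX:74254687-74261548), the gene of emerin, had 2487 and 2479 normalized counts in Undiff and 3584 and 3770 in Day4. It rose by 0.57 on the log2 scale (SE 0.05, adjusted p-value 1.4e-07), which is 1.48-fold. Tmpo (ENSMUSG00000019961, minus strand, chr10:91147571-91181315) encodes the LAP2 proteins, some of which span the inner membrane while LAP2 alpha is soluble in the nucleoplasm. It had 12503 and 12709 in Undiff and 17725 and 18162 in Day4, and rose by 0.51 (SE 0.04, adjusted p-value 3.2e-08). For both genes, each Day4 library was above each Undiff library. The counts do not separate the LAP2 isoforms.

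The SUN genes moved in opposite directions. Sun1 (ENSMUSG00000036817, plus strand, chr5:139200637-139249840) had 8280 and 7548 normalized counts in Undiff and 3280 and 3238 in Day4. The Day4 level was 2.43-fold lower, a log2 fold change of -1.28 (SE 0.05, adjusted p-value 4.0e-11). Sun2 (ENSMUSG00000042524, minus strand, chr15:79724070-79742536) had 1134 and 1013 in Undiff and 2546 and 2513 in Day4. The Day4 level was 2.35-fold higher, a log2 fold change of 1.23 (SE 0.06, adjusted p-value 3.8e-10). The proteins of both genes bind nesprins and share roles in many cells.

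Within libraries, Sun1 made up 84.3% and 84.6% of the SUN counts per kb in Undiff and 48.7% in both Day4 libraries. The mean share of Sun1 dropped by 35.8 percentage points (two-sided exact permutation p = 0.333, the smallest possible). The SD was 0.181 points in Undiff and 0.00352 points in Day4 (n = 2). An SD from 2 libraries is itself uncertain, and the close match in Day4 does not measure the precision of the share. Sun1 thus had 5.38 and 5.49 times the counts per kb of Sun2 in Undiff, and 0.950 times in both Day4 libraries. The near equality in Day4 depends on the lengths used. The share of Sun1 in Day4 was 56.3% from counts without division by length and 54.2% with the length of the longest protein-coding transcript.

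Of the nesprin genes, Syne1 and Syne2 both rose. Syne1 (ENSMUSG00000096054, minus strand, chr10:5020917-5551482), the gene of nesprin-1, had 223 and 219 normalized counts in Undiff and 617 and 581 in Day4. Its level rose 2.70-fold, a log2 fold change of 1.43 (SE 0.09, adjusted p-value 5.3e-09). Syne2 (ENSMUSG00000063450, plus strand, chr12:75818134-76110926), the gene of nesprin-2, had 1792 and 1601 in Undiff and 6988 and 7548 in Day4. Its level rose 4.28-fold, the largest rise of the 10 genes, a log2 fold change of 2.10 (SE 0.06, 95% confidence interval 1.97 to 2.23, adjusted p-value 1.6e-12). No library of Day4 overlapped with Undiff for either gene. In GENCODE vM21, protein-coding exons of Syne2 overlap those of the microRNA gene Mir5101 on the same strand. By that annotation, no other gene of the 10 shares such exon bases with another gene of the count files.

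Both genes encode giant proteins as well as short forms, which may lack either the actin-binding start or the KASH tail that SUN proteins hold. The ends of their longest coding sequences, of 8799 codons in Syne1 and 6874 in Syne2, are shown as above, with the last 4 codons in capitals.
Syne1, KASH end, chr10:5022010-5022039, minus strand: ctcagatataccaacggtCCTCCTCCACTC
Syne2, KASH end, chr12:76110012-76110041, plus strand: ctgcggtacaccaacgggCCACCTCCCACC
These codons form the very end of the KASH tail, which docks in the SUN domain. A fragment counted on Syne1 or Syne2 may come from a transcript with or without this end, and the counts do not tell them apart. Syne1 made up 8.42% and 9.18% of the nesprin counts per kb of these genes in Undiff and 6.13% and 5.39% in Day4, without overlap (two-sided exact permutation p = 0.333, n = 2 against 2). Syne2 thus had 10.9 and 9.89 times the counts per kb of Syne1 in Undiff, and 15.3 and 17.6 times in Day4.

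**Figure D3:**
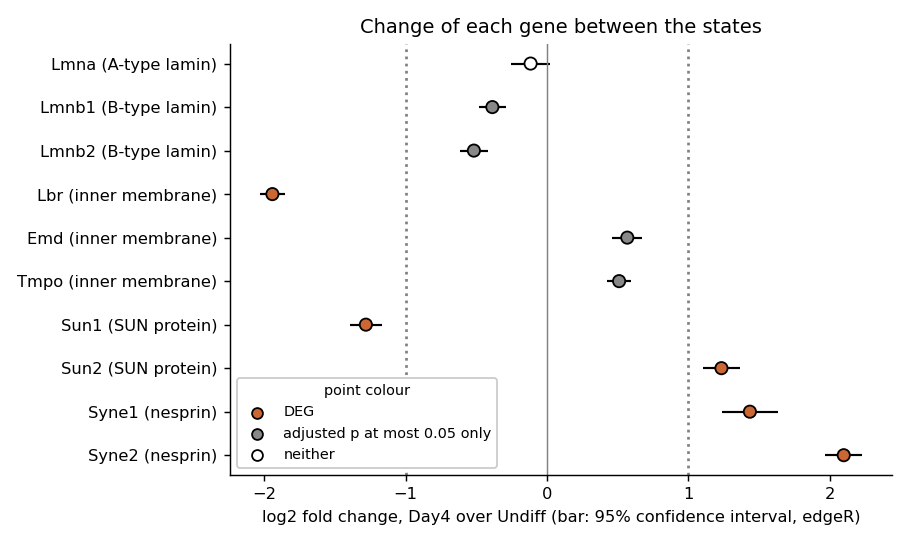
The log2 fold change of Day4 over Undiff (x axis) is plotted for each of the 10 genes by role, with the 95% confidence interval of edgeR as a bar, dotted lines at -1 and 1, and filled orange points for DEGs, grey for genes that passed the adjusted p-value only and white for neither. Syne2 lies highest at 2.10 and Lbr lowest at -1.94, Sun1 and Sun2 lie on opposite sides, and the interval of Lmna includes 0.

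Levels of different genes were compared as normalized counts per kb of exon. In Undiff, Lmnb1 had 5985 ± 196, followed by Lbr with 4374 ± 25.1, Tmpo with 1946 ± 22.5, Sun1 with 1410 ± 92.3, Emd with 1051 ± 2.47 and Lmnb2 with 954 ± 2.69 (SD, n = 2). Sun2 with 260 ± 20.6 and Lmna with 254 ± 6.31 came next and overlapped between libraries. Syne2 had 74.3 ± 5.93 and Syne1 had 7.16 ± 0.0926. In Day4, Lmnb1 was still first with 4577 ± 213, and it was followed by Tmpo with 2770 ± 47.7, Emd with 1557 ± 55.8 and Lbr with 1139 ± 12.1. Lmnb2 (667 ± 14.9), Sun2 (612 ± 5.61) and Sun1 (581 ± 5.25) followed, then Syne2 (318 ± 17.3), Lmna (234 ± 5.41) and Syne1 (19.4 ± 0.828). Neighbours in the Day4 order did not overlap between libraries, and whether they differ beyond 2 libraries was not tested. The values per kb of the nesprin genes rest on exon unions of 30.9 kb and 22.8 kb, and would be higher on the length of a short form.

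**Figure D4:**
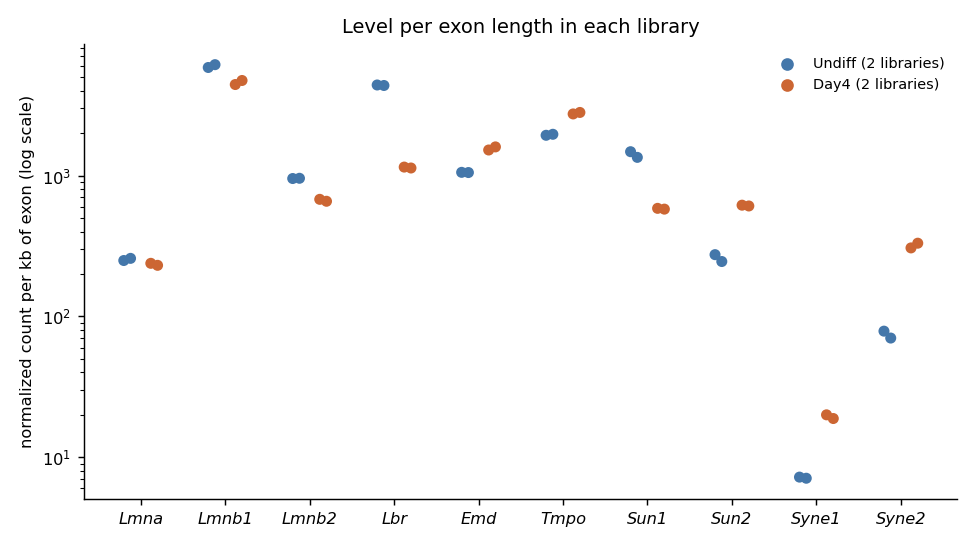
Normalized counts per kb of exon (y axis, log scale) of the 10 genes (x axis) are plotted for each of the 2 Undiff libraries (blue) and the 2 Day4 libraries (orange). Lmnb1 is highest in both states, at means of 5985 and 4577, Syne1 is lowest, at 7.16 and 19.4, and Sun1 and Sun2 lie far apart in Undiff and close together in Day4.

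Sequences before the start sites were read for 9 of the 10 genes, all but Lmnb1, from RefSeq (GRCm38.p6), as the 250 bases before the start. Those shown are of Lbr and Sun1, which fell, and of Sun2 and Syne1, which rose. The search covered AGGTCA, a half-site bound by RA receptors and other nuclear receptors, and GGGCGG, the core bound by Sp factors, on both strands. Matches are in capitals, and appear as TGACCT or CCGCCC where they lie on the other strand. Matches of the 2 motifs did not overlap each other.
Lbr, chr1:181842402-181842651, minus strand: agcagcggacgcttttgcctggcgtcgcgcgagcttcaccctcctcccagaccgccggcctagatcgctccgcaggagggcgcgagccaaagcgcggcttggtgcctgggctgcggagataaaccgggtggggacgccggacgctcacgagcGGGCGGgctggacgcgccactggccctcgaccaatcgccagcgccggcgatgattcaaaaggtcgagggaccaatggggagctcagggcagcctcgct
Sun1, chr5:139200387-139200636, plus strand: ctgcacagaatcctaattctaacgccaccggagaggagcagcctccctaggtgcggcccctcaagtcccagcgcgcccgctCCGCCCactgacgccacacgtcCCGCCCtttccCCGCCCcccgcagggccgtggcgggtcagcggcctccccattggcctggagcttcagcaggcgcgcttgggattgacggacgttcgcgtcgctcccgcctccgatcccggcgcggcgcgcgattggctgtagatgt
Sun2, chr15:79742537-79742786, minus strand: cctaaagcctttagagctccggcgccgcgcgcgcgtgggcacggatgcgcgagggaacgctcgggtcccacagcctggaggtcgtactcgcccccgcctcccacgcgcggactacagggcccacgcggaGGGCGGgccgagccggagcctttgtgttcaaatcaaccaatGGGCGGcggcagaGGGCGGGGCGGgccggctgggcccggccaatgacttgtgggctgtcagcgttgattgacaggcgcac
Syne1, chr10:5550693-5550942, minus strand: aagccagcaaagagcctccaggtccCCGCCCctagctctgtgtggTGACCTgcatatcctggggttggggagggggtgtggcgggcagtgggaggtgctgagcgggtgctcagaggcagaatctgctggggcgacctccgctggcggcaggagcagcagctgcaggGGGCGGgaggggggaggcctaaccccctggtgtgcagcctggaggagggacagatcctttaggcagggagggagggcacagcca
The 9 genes had 15 windows in all, 1 for the first start listed of each gene and 6 for further starts. GGGCGG was found in 9 of the 9 first windows, of genes that rose and of genes that fell, and in 0 of the 6 others, beside 32.9% of the 27025 first windows and 32.7% of all 32851 windows of RefSeq genes. AGGTCA was found in 2 first windows, those of Emd and Syne1, and in 2 of the 6 others, those of Lmna and Lmnb2, beside 13.8% of first windows and 14.0% of all windows. The window of Syne2, which rose most of the 10 genes, is not shown and held no AGGTCA. The windows of the 4 genes shown are rich in G and C, at between 68.0% and 70.8%. GGGCGG itself holds only G and C, and its share among windows of like composition was not computed. The 9 of 9 is therefore not read as an enrichment. In GENCODE vM21 the windows of Lbr and Syne1 lie in introns of transcripts that start further upstream, and that of Sun2 overlaps an exon of the antisense RNA gene Gm16576. A match describes the letters only, and no binding was measured.

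Other genes of the nuclear envelope were taken from lists. Of 22 partners of the lamina and inner membrane, 2 were DEGs higher in Day4, 3 were DEGs lower, and 17 were not DEGs, beside 22.2% of all genes tested that were DEGs higher and 20.6% that were DEGs lower. Their median log2 fold change was -0.19. Without the fold change minimum 6 rose and 11 fell, beside 36.7% and 35.2% of all genes tested. Tor1aip1 (LAP1, an activator of the ATPase torsin) had normalized counts of 867 and 882 in Undiff and 3115 and 3029 in Day4, a log2 fold change of 1.81 (SE 0.05, adjusted p-value 2.6e-12). Lemd2, another LEM domain protein of the inner membrane, rose by 1.14 on the log2 scale. Dhcr7, a sterol reductase of cholesterol synthesis and a relative of the sterol reductase domain of Lbr, fell by 1.61. Banf1, the chromatin factor that LEM domains bind, fell by 1.16 while Emd and Tmpo rose.

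Among 7 tested genes of the wider SUN and KASH families, 1 was a DEG higher and 3 were DEGs lower (22.2% and 20.6% over all genes tested), with a median log2 fold change of -0.45. Clmn, which encodes the actin-binding membrane protein calmin, rose by 1.51 on the log2 scale. Syne3, the gene of nesprin-3, which binds plectin, had normalized counts of 109 and 63.4 in Undiff and 41.8 and 29.2 in Day4, and fell by 1.34 (SE 0.29, adjusted p-value 0.00079). Without Undiff replicate 1 its log2 fold change was -0.87, below the minimum for a DEG. Syne4, the gene of nesprin-4, did not pass the test, with 453 and 440 in Undiff, 399 and 438 in Day4 and a log2 fold change of -0.09 (SE 0.09, adjusted p-value 0.35), and it is named here after its values were seen. Nesprin genes thus did not move as 1 group. Lrmp, which encodes a KASH protein of the endoplasmic reticulum and outer nuclear membrane, had 595 and 593 in Undiff and 14.6 and 23.0 in Day4. Sun3, a SUN gene known from the testis, passed the thresholds with only 18 counts over the Undiff libraries and 5 over the Day4 libraries, a ratio of Undiff to Day4 of 4.53 with a 95% exact binomial interval of 1.62 to 15.6 that covers counting error only. It was not a DEG by DESeq2, with an adjusted p-value of 0.11 under both settings, was not tested after filterByExpr, and fell below the minimum mean count without Undiff replicate 2.

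The cytoskeletal partners that nesprins reach gave 2 DEGs higher and 5 lower among 12 genes (22.2% and 20.6% over all genes tested), with a median log2 fold change of -0.52. Vim, the gene of the intermediate filament vimentin, had 2756 and 2914 normalized counts in Undiff and 14825 and 15087 in Day4, a rise from a mean of 2835 ± 111 to 14956 ± 186 (SD, n = 2, adjusted p-value 3.3e-14, edgeR). Klc1, a light chain of the microtubule motor kinesin, rose by 1.16. The linker genes Dst (dystonin) and Plec (plectin) fell, with log2 fold changes of -1.90 and -1.59. Vimentin is also abundant in mesenchymal cells, whose markers rose as given above, and their part in its rise was not tested.

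Among 6 genes of enzymes that attach lipids to proteins or process prelamin A, 1 was a DEG (22.2% of all genes tested were DEGs higher), Pggt1b, a subunit of geranylgeranyl transferase, which rose by 1.22 on the log2 scale (SE 0.06, adjusted p-value 7.8e-10). Without the fold change minimum 2 of the 6 rose and 3 fell, beside 36.7% and 35.2% of all genes tested. Zmpste24, the protease that cuts prelamin A and that was singled out after its values were seen, had normalized counts of 2955 and 3002 in Undiff and 2348 and 2469 in Day4 and fell by 0.30 (adjusted p-value 7.9e-05).

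Nuclear pore genes mostly fell. Of 28, 16 were DEGs lower in Day4 and 0 were DEGs higher, beside 20.6% and 22.2% of all genes tested. By edgeR with no fold change minimum 26 fell and 1 rose, beside 35.2% and 36.7%. Their median log2 fold change was -1.04, beside -0.03 for all genes tested. Nup210, a nucleoporin that spans the membrane, had 5806 and 5612 normalized counts in Undiff and 934 and 1004 in Day4, and fell by 2.55 on the log2 scale (SE 0.05, adjusted p-value 8.9e-14). Nup160, of the Y-shaped scaffold complex, fell by 1.85. The DEGs with the smallest falls were Nup133, at a log2 fold change of -1.04, and Nup35, which had a mean of 1562 normalized counts in Undiff and 778 in Day4. Neither of these reached the fold change minimum with library totals in place of TMM, and Nup133 did not without Day4 replicate 1 nor Nup35 without Undiff replicate 2. Genes of the cell cycle, given as a measure of proliferation because nuclear envelopes are rebuilt after each division, moved in the same direction. Of 15 such genes, 5 were DEGs lower and 0 were DEGs higher, and by edgeR without the fold change minimum 15 fell and 0 rose (35.2% and 36.7% over all genes tested), with a median log2 fold change of -0.83. The log2 fold changes were -1.69 for Ccnb1 (cyclin B1) and -1.42 for Bub1, a mitotic checkpoint kinase, and -1.08 and -1.09 for Mcm3 and Mcm5, subunits of the replicative helicase. The part of proliferation in the falls of Lmnb1, Lmnb2, Lbr and the nuclear pore genes was not tested.

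**Figure D5:**
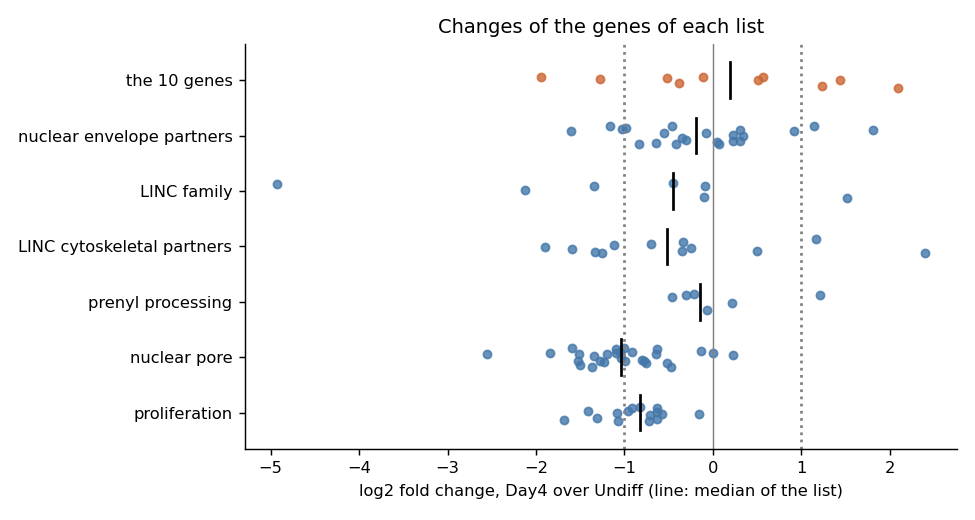
Each point is 1 gene, placed by its log2 fold change of Day4 over Undiff (x axis), for the 10 genes (orange) and 6 lists of related genes (blue), with a line at the median of each list and dotted lines at -1 and 1. The 10 genes spread on both sides of 0 with a median of 0.20, whereas the median of the nuclear pore genes was -1.04 and that of the proliferation genes was -0.83.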

How the data were processed

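RNA of mouse R1 ESCs was sequenced in 4 TruSeq libraries, 2 of Undiff and 2 of Day4, grouped by the sample titles. According to the submitters' processing notes and the methods, the authors used cutadapt for trimming, STAR 2.4.2a for alignment to mm10 and HTSeq to count uniquely aligned fragments per gene. The deposited values are raw counts, 1 whole number for each gene symbol, which the authors did not normalize. The strand option for TruSeq gene counting is not given in the sources used here. Of all fragments listed in a file, those on no gene were 12.1% and 13.2% in Undiff and 7.50% and 7.74% in Day4. Those on more than 1 gene were between 1.84% and 1.91%. Both kinds stayed out of library sizes and tests. The part of the difference in fragments on no gene in the results was not tested.

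Counts were scaled by TMM (factors 0.975 to 1.03) and tested with edgeR 4.0.16 (glmQLFit with legacy = FALSE, glmQLFTest) in R 4.3.3 over all 19891 genes with a count, with state as the only term. The thresholds are those of the methods. The common dispersion was 0.00134. Standard errors are the size of the log2 fold change divided by the square root of F. The test was also run on simulated counts, drawn from the means and library sizes of these data. Far fewer genes were changed in the simulation than were called in the real libraries. That run therefore cannot show how well the p-values hold for these libraries, and no conclusion is drawn from it. Replicates differed by more than sampling noise (chi-square per degree of freedom 5.71 in Undiff and 3.07 in Day4). According to the methods, replicates were grown and treated separately. Positions and exon lengths are from GENCODE vM21 on GRCm38, matched by symbol, and promoter windows are from RefSeq on GRCm38.p6. By the methods, genes were counted on an mm10 annotation taken from iGenomes (UCSC). The exons counted may therefore differ from those used here for values per kb, shares and exon overlaps.

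The members and lists were chosen with earlier results of these data known. All 10 genes are named, and from each pathway list the DEGs with the 2 highest and 2 lowest log2 fold changes. The lists were nuclear envelope partners, the SUN and KASH families, cytoskeletal partners, prenyl processing, nuclear pore, other intermediate filaments, proliferation and the cell type markers. Alternatives were DESeq2 1.42.0 with the settings of the methods and without shrinkage, its size factors or library totals in place of TMM, filterByExpr, a replicate block, thinning, a smaller fold change minimum, other lengths, and each library left out in turn. The ONT libraries were not analysed here.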

Additional observations from a re-analysis of the deposited data

How the results depend on the processing

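Of 373 values recomputed under alternatives, 365 kept their direction and their side of the threshold or stayed within 1.5-fold or 1 SD, and 0 reversed. With a minimum absolute log2 fold change of 0.5, 5 of the 10 genes were DEGs higher in place of 3, because Emd and Tmpo passed, and 3 in place of 2 were DEGs lower, because Lmnb2 passed. The DEGs lower were then 7 in place of 3 among the nuclear envelope partners, 24 in place of 16 among the nuclear pore genes and 14 in place of 5 among the proliferation genes. More of all genes tested also pass at this minimum, and their exact share was not computed. By construction it lies between 22.2% and 36.7% for DEGs higher and between 20.6% and 35.2% for DEGs lower. Lmna passed the test under 2 of its 12 alternatives, at a log2 fold change of -0.15 (adjusted p-value 0.046, edgeR with the size factors of DESeq2) and of -0.18 (0.035, edgeR after thinning), with adjusted p-values up to 0.48 over all 12, and the cause was not tested. The difference in the share of Sun1 was -31.8 percentage points without division by length and -32.9 with the longest protein-coding transcript, an alternative chosen after seeing the data, and that of Syne1 was -3.92 without division by length, all by construction of the lengths. The older quasi-dispersion of edgeR (legacy = TRUE) was also added after seeing the data and kept the 3 and 2 DEGs. When single libraries were left out, the lone library of a state was assumed to vary like the others, and the 9 called genes kept their direction and stayed past the adjusted p-value.

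Same-numbered libraries deviated together with a correlation of -0.0128 over 16472 genes, which gave no sign that the numbers pair them. A single correlation over genes cannot exclude a link that acts on some genes only. With a replicate block, the counts stayed at 3 DEGs higher and 2 lower, and the log2 fold change of Lmna was -0.12 (adjusted p-value 0.13, edgeR). Of the 24 genes named from the lists, 20 stayed DEGs under each alternative, and Sun3, Syne3, Nup133 and Nup35 did not. Depth limits Sun3, at 18 and 5 counts.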

Other observations

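The cytoplasmic relatives of the lamins, 13 other intermediate filament genes, gave 4 DEGs higher in Day4, 4 DEGs lower and a median log2 fold change of -0.01, where 22.2% and 20.6% of all genes tested were DEGs higher and lower. Beside Vim, the highest was Krt19, a keratin of simple epithelia, with normalized counts of 2187 and 1862 in Undiff and 5500 and 5546 in Day4, a log2 fold change of 1.45 (SE 0.06, adjusted p-value 1.1e-10, edgeR). The lowest were Ina and Nefh. Ina, the gene of alpha-internexin, had 1682 and 1766 in Undiff and 42.8 and 34.5 in Day4, a log2 fold change of -5.49 (SE 0.11, adjusted p-value 4.0e-14). Nefh, the gene of the heavy neurofilament, had 1737 and 2103 against 70.0 and 59.9, a log2 fold change of -4.90 (SE 0.13, adjusted p-value 6.9e-13). Other filaments of neurons were mixed, and are named after their values were seen. Prph, the gene of peripherin, also fell, with a log2 fold change of -3.72 (adjusted p-value 2.3e-10, edgeR). Nefm rose by 0.75 (adjusted p-value 0.0017, edgeR), and Nefl did not pass the test, at a log2 fold change of -0.18 (adjusted p-value 0.12, edgeR). For Krt19, Ina and Nefh the libraries of the states did not overlap. The keratin genes Krt8 and Krt18, named after their values were seen, did not pass the test, with log2 fold changes of 0.05 and -0.01 (adjusted p-values 0.30 and 0.89, edgeR).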
